A study of Mus musculus with 4 samples.

Results

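The mitochondrial genome encodes core subunits of the respiratory chain, and 10 of its protein genes were followed here in the stomach of c-Myc transgenic mice. They are ND1, ND2, ND4, ND5 and ND6 of complex I, CYTB of complex III, COX1, COX2 and COX3 of complex IV, and ATP6 of complex V. They were taken by name from a table of 46095 gene symbols, and all 10 were found and passed the filter on low counts. Gastric RNA had been sequenced in 2 samples of WT mice and 2 of Atp4b-cre;MycOE mice (labelled MYC-KI), all C57BL/6 and 12 weeks of age. Each sample is taken here as a separate mouse, which the labels do not state. MYC-KI mice express human c-Myc from 1 copy of a floxed transgene once Cre, under control of the Atp4b promoter of parietal cells, has acted. The WT mice were Myc fl/fl littermates, so both genotypes carry that transgene and the controls lack Cre. The question was how RNA of the respiratory genes differs between the genotypes when the transgene acts in parietal cells, the acid-secreting cells of the corpus, which are packed with mitochondria.

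Before any comparison both MYC-KI columns were re-sorted: their counts were given, from the top row down, to the symbols in character-code order, in which capitals precede lower case. Across all genes Pearson's r of mean log2(count + 1) between the genotypes was 0.524 as deposited and 0.985 after this re-sorting. In the deposited rows ND2 has 101007 and 86729 counts in WT and 0 in both MYC-KI samples, while ATP6 has 1221 and 1104 in WT and 47355 and 49600 in MYC-KI. All values below are from the re-sorted table unless the deposited rows are named.

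Libraries held 30260305 to 41463647 counts. Counts on mouse Myc were 1062 and 759 in WT against 735 and 1091 in MYC-KI, and the human transgene has no row of its own. Atp4a, the catalytic subunit of the proton pump and a defining parietal gene, was at 257861 and 221767 counts in WT and at 4696 and 8359 in MYC-KI. Pgc, the chief cell pepsinogen, was at 2718249 and 2139907 in WT and at 35380 and 63711 in MYC-KI, so both marks of corpus tissue were high in WT and far lower in MYC-KI. Xist (85 and 17846 counts in WT replicates 1 and 2) and Ddx3y (1861 and 5) show that the WT mice differed in sex. In MYC-KI, Xist was at 113 and 201 and Ddx3y at 1941 and 2623, so WT replicate 2 alone carried the female pattern and sex was not balanced between the genotypes. Skeletal muscle genes summed to 1124 normalized CPM (read counts divided by library size and a TMM scaling factor) in MYC-KI replicate 2 and to 16.5 to 124.2 in the other samples, a mark of muscle RNA in that library.

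Each mitochondrial DNA molecule is transcribed from both strands as long precursor RNAs, which are cut apart, mostly at the tRNAs between the genes, into single messengers. The nuclear genome supplies the polymerase POLRMT and its partners TFAM and TFB2M, the enzymes that cut, tail and stabilise the RNAs, and most subunits of complexes I, III, IV and V. Complex I passes electrons from NADH to ubiquinone, complex III passes them on to cytochrome c, complex IV reduces oxygen, and complex V makes ATP. Complex II is wholly nuclear.

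The genes stand close together on a small circle. In mm10, the build named in the submitters' processing notes, ND1 lies at chrM:2751-3707, ND2 at chrM:3914-4951, COX1 at chrM:5328-6872, COX2 at chrM:7013-7696, ATP6 at chrM:7927-8607 and COX3 at chrM:8607-9390. ND4 lies at chrM:10167-11544, ND5 at chrM:11742-13565, ND6 at chrM:13552-14070 and CYTB at chrM:14145-15288. These positions come from the GENCODE M21 annotation of the same assembly, and none of the genes has an intron. ND6 is the member on the minus strand, and its last 14 bases overlap the end of ND5 on the plus strand. ATP6 shares 43 bases with ATP8 and 1 base with COX3, and a read in such an overlap has no single gene of origin.

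The strand shows in the base composition of the messengers. ND6 RNA is 28.1% G and 5.97% C, while the 9 other members hold 8.00% to 16.1% G and 23.8% to 27.8% C. The first 90 bases of the COX1 and ND6 coding sequences, as GENCODE gives them, are shown with each G in capitals.
COX1: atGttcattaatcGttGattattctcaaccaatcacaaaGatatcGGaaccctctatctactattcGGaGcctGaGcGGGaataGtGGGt
ND6: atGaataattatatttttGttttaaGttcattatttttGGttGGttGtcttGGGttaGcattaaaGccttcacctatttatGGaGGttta

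Some of the genes end within a codon, and the poly(A) tail then completes the stop. ND4, COX3 and CYTB have a length that leaves 1 base past the last full codon, whereas ND5 ends in a whole stop. The last 30 bases are shown with the final partial or whole codon in capitals.
ND4: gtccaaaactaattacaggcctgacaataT
COX3: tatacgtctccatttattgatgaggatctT
CYTB: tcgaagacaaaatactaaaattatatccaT
ND5: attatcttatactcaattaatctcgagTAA

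A nuclear copy of part of the mitochondrial genome sits on chromosome 1, and it bears on how many reads could be given to a single gene. GENCODE annotates 7 unprocessed pseudogenes at chr1:24611535-24616197 on the minus strand, a block of 4663 bases that runs from ND4 through ND4L, ND3, COX3, ATP6 and COX2 to COX1. COX2 is identical to the pseudogene Gm28661 over 681 of its 684 bases, COX3 to Gm28437 over 783 of 784, and ATP6 to Gm10925 over 678 of 681. In ND4 the first 876 of 1378 bases are identical to Gm28439. In COX1 bases 1063 to 1545 match Gm29216 with 1 mismatch, A1066T, where positions count from 1 at the first base of the mitochondrial gene and its base is written first. ND1, ND5, ND6, ND2 and CYTB have no annotated copy in this block. The first 90 bases of the fully covered genes, the same on both chromosomes, are given because reads from them cannot be placed by sequence.
COX2: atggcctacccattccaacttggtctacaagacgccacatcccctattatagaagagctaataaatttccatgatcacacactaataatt
COX3: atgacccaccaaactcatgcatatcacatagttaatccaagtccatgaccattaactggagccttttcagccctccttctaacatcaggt
ATP6: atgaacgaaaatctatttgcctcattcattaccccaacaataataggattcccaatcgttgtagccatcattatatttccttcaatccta

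The 60 bases from the start of the COX1 match show the single base that differs, in capitals.
COX1: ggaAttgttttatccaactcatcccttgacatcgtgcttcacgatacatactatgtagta
Gm29216: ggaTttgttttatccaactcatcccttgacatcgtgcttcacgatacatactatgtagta

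The share of windows of 50 bases that also occur in an annotated transcript outside the mitochondrial genome was 100% for COX2, 99.9% for COX3 and 99.5% for ATP6. It was 62.2% for ND4, 51.1% for COX1, 8.19% for ND2, 7.61% for ND5 and 0 for ND1, ND6 and CYTB. With windows of 150 bases it was 59.15% for ND4, 23.6% for COX1 and 0 for ND2 and ND5. Some 50-base windows of COX1 occur in Gm11512 or Gm13340, which are not among the pseudogenes of the block. Levels per length followed a like division. COX1, CYTB, ND1, ND2, ND5 and ND4 lay between 1819 and 16416 normalized CPM per kb over the 4 samples. COX2, ATP6 and COX3, together with the 2 other wholly copied genes ND4L and ND3, lay between 7.01 and 107.5. In WT the level per length of COX1 was 162 times that of COX2 and 296 times that of COX3. ND6 and ATP8, with no shared window in the annotated transcripts, lay between 148.4 and 309.1 and between 12.6 and 21.1. ATP8 lies between COX2 and ATP6, which are 230 bases apart, and their copies on chromosome 1 are 233 bases apart with no annotated gene between them. The genome there was not searched, so whether ATP8 has a copy between them was not tested. How reads matching several places were counted is not given in the sources used here, and the part of the copies in these levels was not tested. The counts of COX2, COX3 and ATP6 are uncertain as levels, and those of ND4 and COX1 are so in part.

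**Figure D1:**
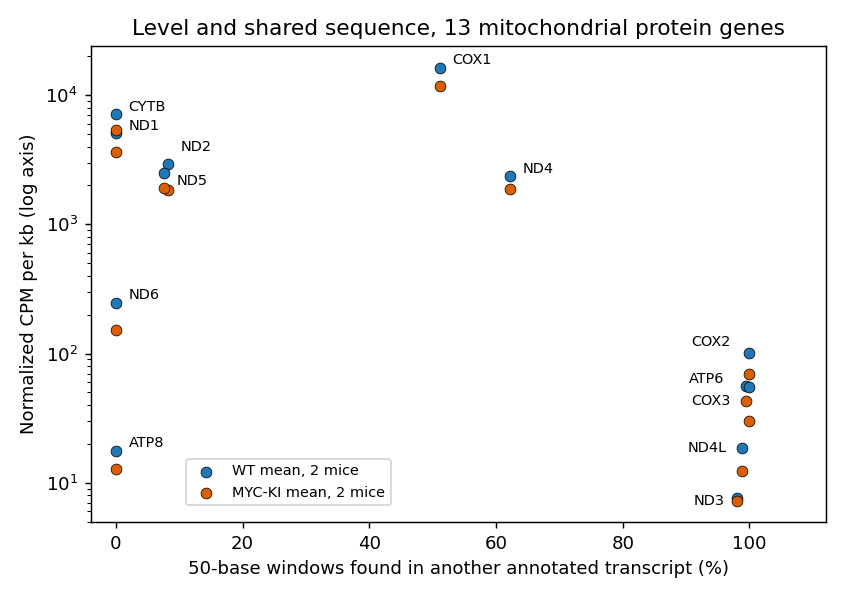
Mean normalized CPM per kb (vertical, log axis) of the 13 mitochondrial protein genes in WT (blue) and MYC-KI (orange), 2 mice each, against the percentage of their 50-base windows found in an annotated transcript outside the mitochondrial genome (horizontal). The 5 genes at the right edge, ND3, ND4L, COX2, COX3 and ATP6, all have means at or below 101.2 CPM per kb. ATP8 lies as low at the left edge, but its windows were not searched in the genome.

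In order of their mean level per length in WT, the members were COX1 (16352 ± 90.1 normalized CPM per kb, SD, n = 2 mice), CYTB (7089 ± 199.8), ND1 (5079 ± 216.9), ND2 (2947 ± 67.4), ND5 (2508 ± 54.3) and ND4 (2355 ± 105.0). ND6 (248.0 ± 86.5), COX2 (101.2 ± 8.95), ATP6 (55.8 ± 3.31) and COX3 (55.3 ± 3.30) followed. ATP6 and COX3 overlapped between the WT mice, and every other pair of neighbours in this order was separated in both. In MYC-KI mice the order began with COX1 (11796 ± 1046, SD, n = 2), CYTB (5335 ± 234.9) and ND1 (3649 ± 330.7) as well. ND5 (1899 ± 86.7), ND4 (1876 ± 81.2) and ND2 (1853 ± 34.2) overlapped there, so ND2 no longer stood above ND5 and ND4 as it did in WT. These levels divide by the whole gene. The order could differ if reads shared with copies, possible over much of ND4 and part of COX1, were not counted, which was not tested.

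**Figure D2:**
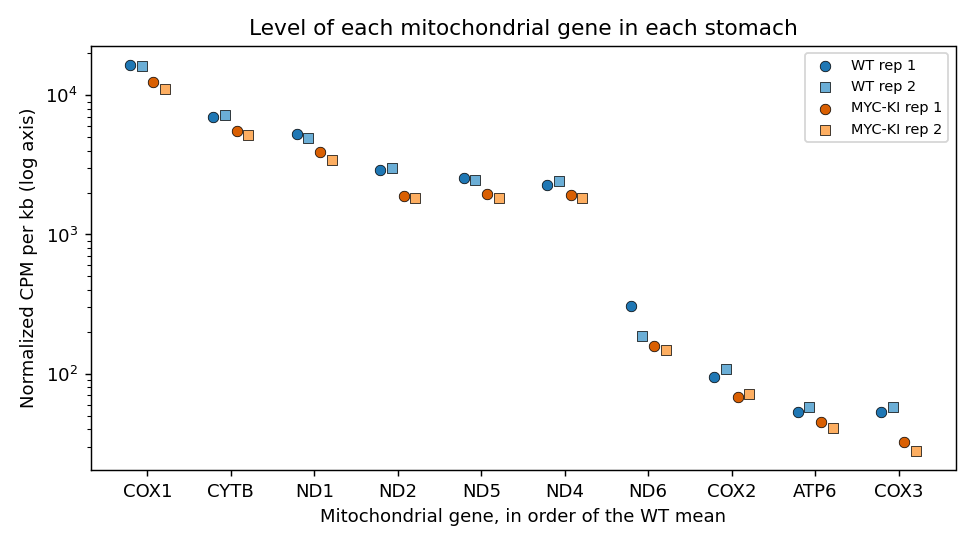
Normalized CPM per kb (vertical, log axis) of each of the 10 mitochondrial genes in each of the 4 stomachs, ordered by the WT mean, with WT in blue and MYC-KI in orange. In every gene both MYC-KI points lie below both WT points, and the upper 6 genes lie at 1819 or above while ND6 and the wholly copied genes lie at 309.1 or below.

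Levels of all 10 genes were lower in MYC-KI mice, by a moderate amount. Both MYC-KI samples lay below both WT samples in 10 of 10 genes, an arrangement that 31.5% of all 17643 tested genes showed. Log2 fold changes (MYC-KI over WT) fitted with edgeR lay between -0.88 and -0.33, with a median of -0.47, against a median of 0.012 over all tested genes. Calls needed an adjusted p below 0.05 and a fold change above 1.5 in either direction, and 10.7% of all tested genes were called, with 5.08% of all tested genes called lower. ND2 and COX3, 2 of the 10, were called lower and none was called higher. Adjusted p was under 0.05 in 3 members (12.9% of all tested genes) and unadjusted p under 0.05 in all 10 (34.1% of all tested genes). The genes are cut from shared precursors, so they are not independent results.

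ND2, a membrane subunit of complex I, had 3010 and 3109 normalized CPM in WT and 1948 and 1898 in MYC-KI. The genotypes were well apart and the replicates close together. ND2 fell by 0.67 on the log2 scale (SE 0.10, adjusted p = 0.0329 from edgeR), a decrease of 37.1%. COX3, a core subunit of complex IV, had 41.5 and 45.2 normalized CPM in WT and 25.3 and 21.9 in MYC-KI. It fell by 0.88 on the log2 scale (SE 0.12, adjusted p = 0.0288 from edgeR), the largest fitted change among the members, on a level that the copy on chromosome 1 makes uncertain.

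ND1, which with ND2 forms part of the membrane arm of complex I, had 5007 and 4714 normalized CPM in WT and 3716 and 3269 in MYC-KI. Its log2 fold change was -0.48 (SE 0.13, adjusted p = 0.0846 from edgeR). ND4 had 3143 and 3347 in WT and 2665 and 2506 in MYC-KI, with the smallest fitted change of the members (log2 fold change -0.33, SE 0.11, adjusted p = 0.126 from edgeR). In both genes the MYC-KI samples lay below the WT samples, with smaller log2 fold changes than that of ND2, and neither passed the threshold.

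ND5, another proton-pumping subunit of the membrane arm, had 4644 and 4504 normalized CPM in WT and 3575 and 3351 in MYC-KI (log2 fold change -0.40, SE 0.12, adjusted p = 0.0910 from edgeR). ND6, encoded on the minus strand, had 160.4 and 97.0 in WT and 82.1 and 77.01 in MYC-KI. The WT mice differed more from each other in ND6 than WT replicate 2 differed from either MYC-KI mouse. Its log2 fold change of -0.69 had the largest error of the members (SE 0.26, adjusted p = 0.146 from edgeR), and was -0.29 without WT replicate 1 and -1.02 without WT replicate 2.

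CYTB, the cytochrome b subunit of complex III, had 7948 and 8271 normalized CPM in WT and 6293 and 5913 in MYC-KI (log2 fold change -0.41, SE 0.13, adjusted p = 0.105 from edgeR). COX1, the catalytic subunit of complex IV and the most abundant member, had 25363 and 25166 in WT and 19367 and 17082 in MYC-KI (log2 fold change -0.47, SE 0.16, adjusted p = 0.131 from edgeR). For both, the WT samples were close and the MYC-KI samples lay below them without passing the threshold.

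COX2, which carries the site that accepts electrons from cytochrome c, had 64.9 and 73.6 normalized CPM in WT and 46.7 and 49.1 in MYC-KI. Its adjusted p of 0.0421 from edgeR passed and its log2 fold change of -0.53 (SE 0.098) did not reach the fold threshold. ATP6, a subunit of the proton channel of complex V, had 36.4 and 39.6 in WT and 30.8 and 27.9 in MYC-KI (log2 fold change -0.37, SE 0.11, adjusted p = 0.0975 from edgeR). In the deposited rows, by contrast, ATP6 has the higher counts in MYC-KI given above.

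The size of the difference depended on the scaling between libraries. With library size in place of TMM the median of all tested genes moved to 0.23 and that of the members to -0.25 (a shift that this change of scaling gives to all genes alike). All 10 remained negative, and unadjusted p was under 0.05 in 3 of them (40.2% of all tested genes). ND2 was at -0.45, under the fold threshold, and COX3 alone was called (-0.65, beside 4.19% of all tested genes called lower). DESeq2 called ND2, COX3 and ND6 lower, beside 9.65% of all genes it tested. Its adjusted p was under 0.05 in 9 members, and the share of all genes at that threshold alone was not computed. With either WT replicate left out, 0 members were called, and so was no other gene of the table, while all 10 fold changes stayed negative and unadjusted p was under 0.05 in 3 members without WT replicate 1 (19.4% of all genes then tested) and in 4 without WT replicate 2 (18.3%). The 10 most abundant nuclear genes of each sample took 14.7% and 15.1% of all counts in WT and 6.74% and 5.50% in MYC-KI, and their part in the scaling was not tested.

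As a share of the library, the 10 genes together took 4.59% and 4.55% of all counts in WT and 4.08% and 3.68% in MYC-KI. The Wilson 95% intervals of these shares, 4.58% to 4.59%, 4.54% to 4.56%, 4.08% to 4.09% and 3.68% to 3.69%, cover counting error only and do not overlap between any of the mice. The mean was 4.57% ± 0.025 (SD, n = 2) in WT and 3.88% ± 0.28 in MYC-KI, a difference of -0.69 percentage points. The groups did not overlap, and p was 0.333 in an exact two-sided permutation test, the smallest that 2 against 2 samples allow. Leaving the 10 most abundant nuclear genes of each sample out of the total gave 5.38% and 5.36% in WT and 4.38% and 3.90% in MYC-KI. MYC-KI replicate 2, the library with skeletal muscle RNA, had the lowest share on both scales.

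Parietal cell markers differed far more between the genotypes. Summed over 8 parietal genes, levels were 12457 and 12690 normalized CPM in WT and 1667 and 1621 in MYC-KI, a mean 7.65-fold lower, and 7 of the 8 were called lower. Car2, the member not called (log2 fold change -0.30), made up 1398 and 1300 of the MYC-KI sums. Without Car2, left out after its values were seen, the sums were 10826 and 10990 in WT and 268.5 and 320.9 in MYC-KI, a mean 37.0-fold lower. Summed markers of chief cells (84858 and 80501 against 1172 and 1499) and of surface mucous cells (44889 and 53560 against 10957 and 17193) were also lower in MYC-KI. In a whole stomach fewer cells of a type and less RNA per cell cannot be told apart, and the part of cell composition in the mitochondrial values was not tested.

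Of the marker sums of other cell types and tissues, some overlapped between the genotypes and some were lower in MYC-KI. The smooth muscle sum of 6 genes was 7640 and 4827 normalized CPM in WT and 2480 and 5270 in MYC-KI, with overlap. The skeletal muscle sum of 5 genes overlapped too. The adipocyte sum of 5 genes was 60.9 and 150.3 in WT and 19.1 and 28.3 in MYC-KI, with Ucp1, the brown fat uncoupler, at 0 counts in all 4 samples. The pancreatic acinar sum of 5 genes was 1.64 and 1.79 in WT and 0.560 and 0.157 in MYC-KI, with Cpa1 and Prss2 at 0 counts. Cela2a and Amy2b made up nearly all of the WT acinar sums and were at 0 or 1 counts in MYC-KI, whereas counts of Pnlip were 1 and 0 in WT but 18 and 7 in MYC-KI. The part of these tissues in the mitochondrial values was not tested. Squamous genes of the forestomach (2000 and 1108 against 635.5 and 3471) overlapped, and the sum of 4 globin genes was 227.2 and 71.4 against 25.1 and 28.6. Among leukocyte genes, the myeloid genes Lyz2 (139.6 and 138.9 against 45.0 and 47.1) and Csf1r (59.8 and 63.0 against 22.3 and 19.5) were called lower. Ptprc, the pan-leukocyte gene, was at 15.0 and 21.2 against 21.9 and 13.3, and Cd3e and Cd79a of lymphocytes overlapped as well.

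**Figure D3:**
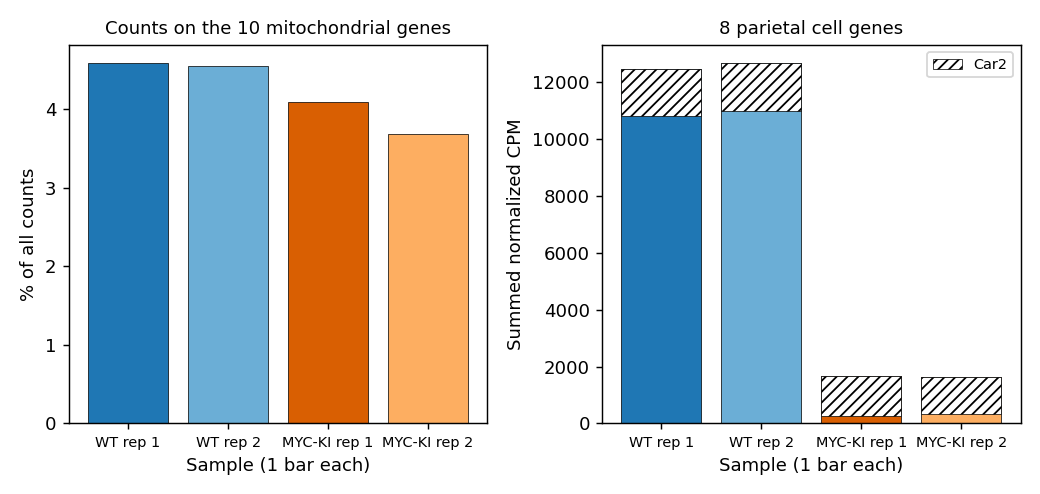
Left, percentage of all counts that fell on the 10 mitochondrial genes in each sample. Right, summed normalized CPM of 8 parietal cell genes in the same samples. Bars are single samples and start at 0, and the mitochondrial share is 3.68% to 4.08% in MYC-KI against 4.55% to 4.59% in WT, while the parietal sum is 1621 to 1667 against 12457 to 12690, or 268.5 to 320.9 against 10826 to 10990 without Car2 (hatched).

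Within the counts on the 10 genes the shares of complexes I, III and IV hardly moved. Complex I genes made up 32.3% and 31.9% of the counts on the 10 genes in WT and 31.8% and 32.5% in MYC-KI, a difference of -0.018 percentage points (p = 1 in an exact two-sided permutation test). Complex IV genes made up 51.5% and 51.2% in WT and 51.5% and 50.2% in MYC-KI, nearly all of it COX1. CYTB of complex III had 16.1% and 16.8% in WT and 16.7% and 17.3% in MYC-KI. In all 3 the groups overlapped. ATP6, the complex V member, had 0.0736% and 0.0802% in WT and 0.0815% and 0.0816% in MYC-KI, without overlap. Counts of COX2, COX3 and ATP6 are uncertain as levels, and the shares of complexes IV and V are uncertain with them.

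The shares of single genes are given as a description. ND2 took 6.09% and 6.30% of the counts in WT and 5.16% and 5.55% in MYC-KI, whereas ND4 took 6.36% and 6.78% in WT and 7.06% and 7.33% in MYC-KI. ND5 took 9.40% and 9.12% in WT and 9.47% and 9.80% in MYC-KI. COX3 had 0.0840% and 0.0915% in WT and 0.0669% and 0.0640% in MYC-KI, opposite to its neighbour ATP6. The groups did not overlap for any of these 4 or for ATP6, each with p = 0.333, the smallest value of the exact permutation test. These shares do not depend on scaling between libraries. In normalized CPM, a different measure, 31.5% of all tested genes had both MYC-KI samples below both WT samples and 33.3% had both above. No such background was computed for the shares, which are bound to each other by their common total. Separate groups in 5 of 10 members are therefore a description only. COX3 and ATP6 are also uncertain as levels. ND6 took 0.325% and 0.196% in WT and 0.217% and 0.225% in MYC-KI, with overlap (p = 1, exact permutation test).

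The other genes of the mitochondrial genome had few reads. Counts of ND3 were 91 and 72 in WT and 89 and 109 in MYC-KI, those of ND4L 190 and 150 against 143 and 138, and those of ATP8 98 and 120 against 91 and 115. The rows named Rnr1 and Rnr2, taken by name as the ribosomal RNAs, had 217 and 196 against 118 and 133, and 796 and 738 against 705 and 836. None of these 5 was called, and their log2 fold changes lay between -1.06 and -0.064. The 22 mitochondrial tRNA rows summed to 319 and 180 counts in WT and 89 and 120 in MYC-KI. Of the pseudogenes in the chromosome 1 block, Gm10222, the copy of ND4L, has a row, at 225 and 214 in WT and at 131 in both MYC-KI samples (log2 fold change -1.08, adjusted p = 0.0677 from edgeR). Gm29215, listed with it, was at 0 in all samples.

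The nuclear subunits of the same complexes had a median log2 fold change nearer to 0 than the members. The list holds 78 genes, of which 76 passed the filter, and 3 were called lower and 0 higher, or 3.95% beside 10.7% of all tested genes. Their median log2 fold change was -0.26, and 66 of the 76 values were negative. By complex the nuclear medians were -0.27 (complex I, 35 genes), -0.27 (complex III, 9 genes), -0.33 (complex IV, 15 genes) and -0.19 (complex V, 17 genes). The members of the same complexes had -0.48, -0.41, -0.53 and -0.37. With library size in place of TMM the nuclear median was -0.036, with 44 of 76 values negative.

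The called subunits were Cox7a1, the form of a complex IV subunit typical of heart and skeletal muscle, Atp5g1, a gene for the ring subunit c of complex V, and Ndufa11, an accessory subunit of complex I. Cox7a1 had 10.7 and 8.14 normalized CPM in WT and 1.71 and 1.39 in MYC-KI (log2 fold change -2.61, SE 0.29, adjusted p = 0.0212 from edgeR). Atp5g1 had 109.1 and 107.2 against 64.7 and 72.6 (log2 fold change -0.65), and Ndufa11 had 64.6 and 64.1 against 41.2 and 43.2 (-0.61). With library size in place of TMM, Atp5g1 (-0.43) and Ndufa11 (-0.38) were under the fold threshold. Without MYC-KI replicate 1 a single subunit was called.

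The difference between both sets was taken within each sample, as the mean log2 level of the 10 members minus that of the 78 nuclear subunits. It was 3.88 and 3.96 in WT and 3.75 and 3.56 in MYC-KI, a change of -0.26, with no overlap (p = 0.333, the smallest value of the exact two-sided permutation test). Without MYC-KI replicate 2, the library with skeletal muscle RNA, the change was -0.17, and without MYC-KI replicate 1 it was -0.36. The mitochondrial messengers lay lower against their nuclear partners in both MYC-KI mice. The 78 include Cox6a2 and Cox8b, at 2.98 and 0.851 normalized CPM in MYC-KI replicate 2 and at 0.0885 and 0 in MYC-KI replicate 1. The members include COX2, COX3 and ATP6, which are uncertain as levels. The part of these genes in the difference was not tested. Among the wholly nuclear genes of complex II, which oxidises succinate, Sdha (log2 fold change -0.48), Sdhb (-0.50) and Sdhc (-0.46) had adjusted p-values of 0.0378, 0.0341 and 0.0473 from edgeR and missed the fold threshold. Sdhd was at 0.16 (adjusted p = 0.255).

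Nuclear genes for transcription, copying and upkeep of mitochondrial DNA stood on the other side of 0. Of 22 tested genes 4 were called higher and 0 lower, or 18.2% beside 10.7% of all tested genes (5.65% higher). Their median log2 fold change was 0.33, with 19 values positive, and the 4 were Top1mt, Ssbp1, Peo1 and Tfb2m. Top1mt, the mitochondrial topoisomerase, had 8.16 and 7.74 normalized CPM in WT and 17.6 and 15.2 in MYC-KI (log2 fold change 1.05, SE 0.16, adjusted p = 0.0335 from edgeR). Peo1, which encodes the replicative helicase Twinkle, had 23.0 and 25.0 in WT and 40.9 and 40.8 in MYC-KI (log2 fold change 0.77).

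Ssbp1, the single-strand DNA-binding protein of the replication fork, had 13.9 and 13.6 normalized CPM in WT and 24.5 and 22.4 in MYC-KI (log2 fold change 0.77). Tfb2m, the factor that opens the promoter for the polymerase, had 19.2 and 21.5 in WT and 31.0 and 30.1 in MYC-KI. Its log2 fold change of 0.59 with an adjusted p of 0.0498 from edgeR lies just past both thresholds. Tfb2m was under the fold threshold with DESeq2 (0.576), with DESeq2 size factors in edgeR (0.571) and with scaling without mitochondrial rows (0.5846). The polymerase gene Polrmt had 30.7 and 33.6 in WT and 42.4 and 39.9 in MYC-KI (log2 fold change 0.36, adjusted p = 0.0902 from edgeR). Tfam, which packs the DNA and binds its promoters, had 36.3 and 36.5 against 48.1 and 43.6 (0.33, adjusted p = 0.0903). The DNA polymerase gene Polg was at 0.31 (adjusted p = 0.171), so these 3 did not pass, with both MYC-KI samples above both WT samples in each, as in 33.3% of all tested genes.

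Genes that process or stabilise mitochondrial RNA showed a like pattern. Of 20 tested genes 4 were called higher and 0 lower, or 20.0% beside 10.7% of all tested genes (5.65% higher), with a median log2 fold change of 0.48 and 18 values positive. Elac2, which cuts the 3′ end of tRNAs out of the precursor, had 32.9 and 33.7 normalized CPM in WT and 73.0 and 60.7 in MYC-KI (log2 fold change 1.01, SE 0.12, adjusted p = 0.0233 from edgeR). Both other called genes of tRNA excision act at the 5′ end. The row 1110008L16Rik, an older name of Prorp, the nuclease subunit of mitochondrial RNase P, had 21.5 and 24.6 against 38.3 and 38.5 (0.74), and Trmt10c, another subunit of that enzyme, had 20.5 and 19.0 against 32.2 and 29.98 (0.65). The third subunit, Hsd17b10, went the other way, with 71.0 and 69.9 in WT and 54.2 and 54.3 in MYC-KI (-0.38, adjusted p = 0.0435 from edgeR, under the fold threshold).

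Supv3l1, the helicase of the mitochondrial RNA-degrading complex, had 24.8 and 23.0 normalized CPM in WT and 38.1 and 36.4 in MYC-KI (log2 fold change 0.64, adjusted p = 0.0353 from edgeR). Lrpprc, which with Slirp binds and stabilises the messengers of the plus-strand genes, had 89.0 and 82.0 against 120.1 and 122.2. Its log2 fold change of 0.50 (adjusted p = 0.0358 from edgeR) was under the fold threshold, and that of Slirp was 0.26 (adjusted p = 0.385). With library size in place of TMM the calls in both lists grew, to 7 of 22 and 9 of 20, in the direction that this scaling moves all genes (12.9% of all tested genes were then called higher). Without MYC-KI replicate 1 a single gene was called in each list.

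Assembly factors, which build the complexes and are not part of them, were spread around 0. Of 41 tested genes, Ndufaf6, a complex I factor, was called higher (4.32 and 4.09 normalized CPM in WT, 8.96 and 8.08 in MYC-KI, log2 fold change 1.02, adjusted p = 0.0490 from edgeR) and 0 were called lower. That is 2.44% beside 10.7% of all tested genes, and the median was 0.060, with 23 values positive and 18 negative. Ndufaf6 was not called with any 1 of the 4 samples left out.

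Among 12 regulators of mitochondrial biogenesis, a list that also holds Tfam and Myc, 1 was called higher and 2 lower, or 25.0% beside 10.7% of all tested genes (5.65% higher and 5.08% lower). Esrrg, an estrogen-related receptor that parietal cells express strongly, had 176.6 and 198.3 normalized CPM in WT and 10.6 and 12.6 in MYC-KI (log2 fold change -4.01, SE 0.14, adjusted p = 0.00635 from edgeR). It stands in the parietal list as well, so both lists share this measurement. Esrrb, its relative, had 11.4 and 12.1 against 0.767 and 0.358 (-4.40). Pprc1, a coactivator of the PGC1 family, had 42.0 and 42.4 against 71.8 and 60.3 (0.65, adjusted p = 0.0392 from edgeR), and was not called without MYC-KI replicate 1. Ppargc1a, the best-known coactivator of mitochondrial genes, was at 23.0 and 21.8 against 13.7 and 8.35 (-1.02, adjusted p = 0.0821), and Esrra at 119.8 and 129.5 against 141.3 and 114.4 (0.037).

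**Figure D4:**
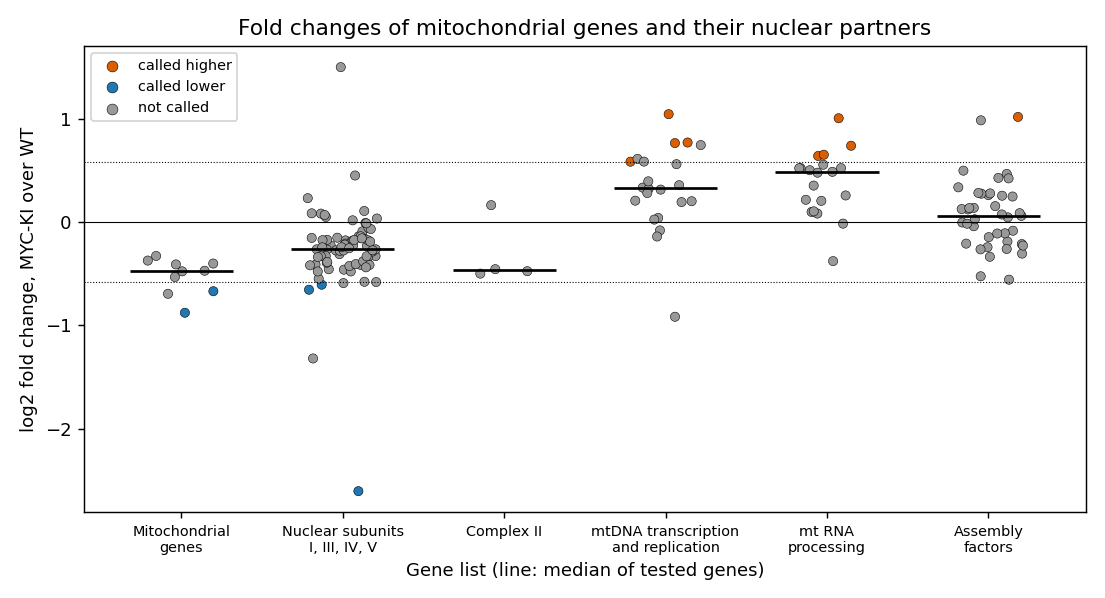
Log2 fold change (MYC-KI over WT, vertical) of each tested gene in 6 lists, with the median of each list as a line and the 1.5-fold threshold in each direction dotted (orange, called higher; blue, called lower; grey, not called). All 10 mitochondrial genes lie below 0 (median -0.47), nuclear subunits have a median of -0.26, and the lists of mitochondrial DNA and RNA factors have medians of 0.33 and 0.48.

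The genes whose profile over the 4 samples was nearest to the mean of the members were Tmem245, Camk2n1, Iqgap2, Stx7 and Tor3a, of 6061 genes outside the lists whose log2 CPM averaged 5 or more. Likeness was measured as the Euclidean distance of centred log2 levels, which was 0.020 for Tmem245 and 0.050 for Tor3a. Tmem245, a membrane protein gene, had 43.7 and 43.7 normalized CPM in WT and 31.3 and 29.3 in MYC-KI. Over only 4 samples many genes share such a profile, and nothing about function follows from it.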

How the data were processed

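Gastric RNA of 2 WT and 2 MYC-KI samples was sequenced. The authors deposited 1 table of raw counts per gene symbol and sample, not normalized. Their processing notes name HISAT2 and mm10, while the counting tool, annotation, strandedness and treatment of reads with several matches are not given in the sources used here. The methods name DESeq2 with thresholds on FDR and fold change, which were kept at 0.05 and 1.5-fold.

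Both MYC-KI columns were re-sorted as the choice of members requires. All genes were then fitted with edgeR 4.0.16 (R 4.3.3) by TMM, filterByExpr and the quasi-likelihood test on genotype alone, with Benjamini-Hochberg adjustment over 17643 genes. Dividing the log2 fold change by the root of the F statistic gave the SE. Shares, and the difference between mitochondrial and nuclear subunits (log2 of normalized CPM plus 0.5), were compared by exact permutation in scipy 1.17.1. Depth was 30260305 to 41463647 counts per sample, and intervals cover counting error only. The labels do not say more of the replicates than that they are separate samples, so p-values measure the spread between 2 samples a genotype.

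Positions and sequences are from GENCODE M21 on mm10, with mitochondrial genes matched by name. Copies were aligned with Biopython 1.88, and windows were searched on both strands of GENCODE transcripts, not in the genome. Members, gene lists and tests were chosen with earlier results of these data known. All members are named, and from each other list up to 5 called genes with the largest fold change, with Polrmt, Tfam, Polg, Lrpprc, Slirp, Ppargc1a, Esrrg and complex II. Hsd17b10, Esrra and Car2 were added after their values were seen. Alternatives were DESeq2 1.42.0, its size factors, library size, scaling without mitochondrial rows, other filters and fold thresholds, the replicate number as a block, the deposited order and each sample left out. Scripts for these tests recovered known changes in simulated counts. The changes simulated for edgeR were larger than that of any member, so recovery at the members' size was not tested.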

Additional observations from a re-analysis of the deposited data

How the results depend on the processing

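All 10 member fold changes stayed negative in every alternative except the deposited order, which called 9 members lower and 1 higher and reversed ATP6 to 5.10. With 2 members called lower at first, library size gave 1, a threshold of 1 on the log2 scale 0, and each sample left out 0 to 2. The replicate numbers did not pair the samples (r = 0.0674 between deviations of same-numbered samples over 17643 genes), and the replicate block gave 0 members (5 with an unadjusted p under 0.05, beside 29.3% of all genes in that fit, against 10 without the block), 0 nuclear subunits, 0 transcription and DNA genes, 0 RNA processing genes, 0 assembly factors, and among regulators 0 higher and 1 lower, with 114 genes called in all. Nuclear subunits called lower were 5 under DESeq2 and with its size factors, 1 with library size, 18 with no fold threshold, 1 above a log2 change of 1 and 0 to 4 with each sample left out. Transcription and DNA genes called higher were 7 with library size, 1 above a log2 change of 1 and 0 to 4 with each sample left out, and DESeq2 called 1 lower. RNA processing genes called higher were 9 with library size, 1 above a log2 change of 1 and 0 to 4 with each sample left out, and 1 was lower with no fold threshold. Assembly factors called higher were 4 with library size, 0 with DESeq2 size factors, 2 with no fold threshold and 0 with any sample left out. Regulators called lower were 4 under DESeq2 and 0 to 3 with each sample left out, and those called higher were 0 above a log2 change of 1 and 0 to 1 with each sample left out. The deposited order gave 15 nuclear subunits higher and 39 lower, 7 and 8 transcription and DNA genes, 10 and 8 RNA processing genes, 17 and 18 assembly factors, and 2 and 9 regulators. It also changed the difference in library share to -4.40 percentage points, in the shares of complexes I, III, IV and V to -19.1, -13.2, -48.9 and 81.2, in that of ND6 to 0.248, and in the log2 difference to nuclear subunits to -4.21. Outside the 10 most abundant nuclear genes the difference in library share was -1.23, and with each sample left out the difference over all counts was -0.89 to -0.49, and that to nuclear subunits on the log2 scale was -0.36 to -0.17. Leaving Car2 out of the parietal sum, chosen after seeing the data, changed its fold from 7.65 to 37.0. A genotype left with 1 sample was assumed to vary like the other, and the cause of these differences was not tested. Reads shared with the copies on chromosome 1 limit what the counts of COX2, COX3 and ATP6 say of their levels.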
